A study of Mus musculus with 3 samples.

Results

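The CD8+ T cell cluster C6, named Fcer1ghi in the study, is a small population of splenic donor T cells whose name refers to transcripts of Fcer1g, the gene of the Fc receptor gamma chain. Its members were the cells of the deposited CD8 table whose cluster number carried the same cell numbers per group as C6 in the supporting values of the study, and no measured level chose them. C6 held 532 of the 10833 CD8+ cells and of the 21204 cells of both lineages. The other 10301 CD8+ cells were the reference, and the CD4+ cluster of the same name, C8 with 472 cells after the TEa cells were set aside, was the population most like it. By pool the members numbered 45, 62 and 83 in the saline group, 27, 61 and 61 in the CSA 5 mg/kg group and 42, 77 and 74 in the CSA 50 mg/kg group.

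All recipients were irradiated B6D2F1 mice that received B6 bone marrow, B6 T cells and 1000 T cells of the TEa line, a CD4+ TCR transgenic line on a Rag1-/- background that carries CD45.1, whereas the B6 donors and the recipients carry CD45.2. From day 0 to day 6 the mice received daily saline or the calcineurin inhibitor cyclosporine (CSA), at a dose of either 5 or 50 mg/kg. Spleens were taken on day 7 from 6 mice per group and combined into 3 pools of 2 mice, each pool with its own hashtag, and sorted CD4+ and CD8+ CD90.2+ cells of a group were loaded together in 1 droplet capture. Dose and capture therefore cannot be told apart in any comparison between groups, p-values measure the spread between pools of mice, and the ages of the mice were not given in the sources used here. Sums over C6 held 125013 to 573391 RNA molecules (UMIs) per pool and sums over the other CD8+ cells 4267087 to 10881245, so that weakly expressed genes were measured far less precisely in C6. Between captures, 436 cells shared a barcode with a cell of another capture, among them 11 in C6.

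The Fc receptor gamma chain is a short membrane adaptor whose cytoplasmic activation motif couples Fc receptors, and several other receptors, to intracellular kinases. It is best known from macrophages, mast cells and NK cells, and activated or innate-like CD8+ T cells can express it as well. Splenic red pulp macrophages clear aged erythrocytes and recycle their iron. They are known for the transcription factor Spic, the iron exporter ferroportin (Slc40a1), haem oxygenase 1 (Hmox1), Vcam1, Cd5l and the complement C1q chains. CSA binds cyclophilin, and the complex blocks the phosphatase calcineurin and thereby nuclear entry of NFAT after T cell receptor signalling.

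The receptor sequences of 3 clonotypes with a C6 cell are shown. They were chosen as the 3 with the most CD8+ cells among those with a C6 cell and a single alpha and beta chain. They tie their C6 cells to conventional alpha beta T cell clones, and the presence of such large clonotypes in other clusters follows from the choice. These clonotypes of the saline group held 37, 25 or 19 CD8+ cells of their pool, of which 1 each was in C6. Clonotypes were grouped by amino acids, and the most common nucleotide sequence among the CD8+ cells of each is given. The first was found in C1, C2, C3, C4 and C6 and used TRAV7-5 with TRAJ24 and TRBV12-1 with TRBJ2-5. The junction nucleotides of the 3 clonotypes are given with the first and the last codon in capitals:
Alpha junction of the clonotype of 37 cells: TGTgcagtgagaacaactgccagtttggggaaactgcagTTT
Beta junction of the clonotype of 37 cells: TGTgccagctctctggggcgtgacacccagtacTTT
Alpha junction of the clonotype of 25 cells: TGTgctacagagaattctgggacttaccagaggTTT
Beta junction of the clonotype of 25 cells: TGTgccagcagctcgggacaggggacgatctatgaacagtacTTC
Alpha junction of the clonotype of 19 cells: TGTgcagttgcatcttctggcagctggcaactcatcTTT
Beta junction of the clonotype of 19 cells: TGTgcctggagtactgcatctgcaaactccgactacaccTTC
The alpha chain pair of invariant NKT cells, TRAV11 with TRAJ18, and that of mucosal-associated invariant T cells, TRAV1 with TRAJ33, were each found in 0 of the 408 C6 cells with a clonotype, which allows a share of up to 0.735%.

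To examine what set C6 apart, counts were summed over the cells of a pool and divided by the total of that sum to give counts per 1e6 (CPM), and the log2 difference from the other CD8+ cells of the same pool was taken after 1 CPM was added to both. The clusters were made from these counts, so the differences are given as a description without a test. Fcer1g measured from 337 CPM in the lowest pool to 666 in the highest, with a median of 448, against 14.5 to 97.1 CPM with a median of 66.9 in the other CD8+ cells. The lowest pool of C6 lay above the highest pool of the other cells, and the mean log2 difference was 3.26 ± 1.24 (SD, n = 9). High Fcer1g in C6 goes with the name of the cluster but is no independent check of that name. RNA levels had already shaped the grouping of the cells. Among the 8 other CD8+ clusters, mean Fcer1g levels ran from 29.0 CPM in C7 to 73.6 CPM in C2, and an Fcer1g UMI was found in 7.84% of the cells of C0 to 22.1% of those of C2 against 77.6% in C6 (Wilson 95% interval 73.9 to 81.0%, counting error only).

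Fcer1g was not the leading gene of C6. Of 3331 genes with a mean over pools of 50 CPM or more in either class, 168 (5.04%) were higher in C6 in all 9 pools, and 47 (1.41%) were so by a mean log2 difference of 2 or more. The genes with the largest differences were Fcna, C1qb, C1qa, Cd5l, C1qc, Vcam1, Wfdc17, Apoe, Clec4n, Siglece, Cfp and Csf1r, and Fcer1g came 41st of the 47. Fcna encodes ficolin-A, a lectin that starts complement activation, and measured 98.8 to 235 CPM in C6 against 1.98 to 5.69 CPM, a mean log2 difference of 4.95 ± 0.67 (SD, n = 9). C1qb, a chain of complement C1q, measured 296 to 627 CPM against 8.36 to 21.4 CPM, a mean log2 difference of 4.94 ± 0.63. Csf1r, the receptor for macrophage colony-stimulating factor, measured 24.0 to 98.7 CPM against 0.469 to 3.22 CPM. In these 3 genes every pool of C6 lay above every pool of the other CD8+ cells. The leading genes were chosen for a higher level in all 9 pools, so such separation is not independent of the choice.

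Genes known from red pulp macrophages were among the 47. Hmox1 measured 175 to 648 CPM in C6 and 15.5 to 30.6 CPM in the other CD8+ cells, Slc40a1 43.8 to 157 and 1.98 to 7.47 CPM, and Spic 50.1 to 140 and 2.47 to 5.69 CPM. The adaptor Tyrobp (DAP12), which like the gamma chain serves myeloid and NK receptors, measured 135 to 390 CPM against 7.54 to 16.4 CPM. The IgG receptor genes Fcgr3 and Fcgr4 were also members, with log2 differences of 3.59 and 4.48, and so were the MHC class II genes H2-Aa, H2-Ab1 and H2-Eb1 and their invariant chain Cd74. Ratios of C6 to other CD8+ means differed among these genes: they were 37.6 for Fcna, 32.2 for C1qb, 22.4 for Tyrobp and 8.40 for Fcer1g.

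T cell transcripts were near the level of the other CD8+ cells. Of the 18 listed genes of the T cell receptor complex and its coreceptors, all reached 50 CPM and 0 were higher and 0 lower in C6 in all 9 pools, with a median log2 difference of -0.06 beside -0.05 over all genes at that level. Against the other CD8+ cells outside the cycling clusters the median was -0.22, beside -0.01 over all genes. Cd3e, a signalling chain of that complex, measured 975 to 1312 CPM in C6 and 990 to 1143 CPM in the other CD8+ cells. Cd8b1, the CD8 beta chain, measured 1175 to 2515 and 1268 to 2878 CPM. The ranges of the 2 classes overlapped for both genes.

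**Figure D1:**
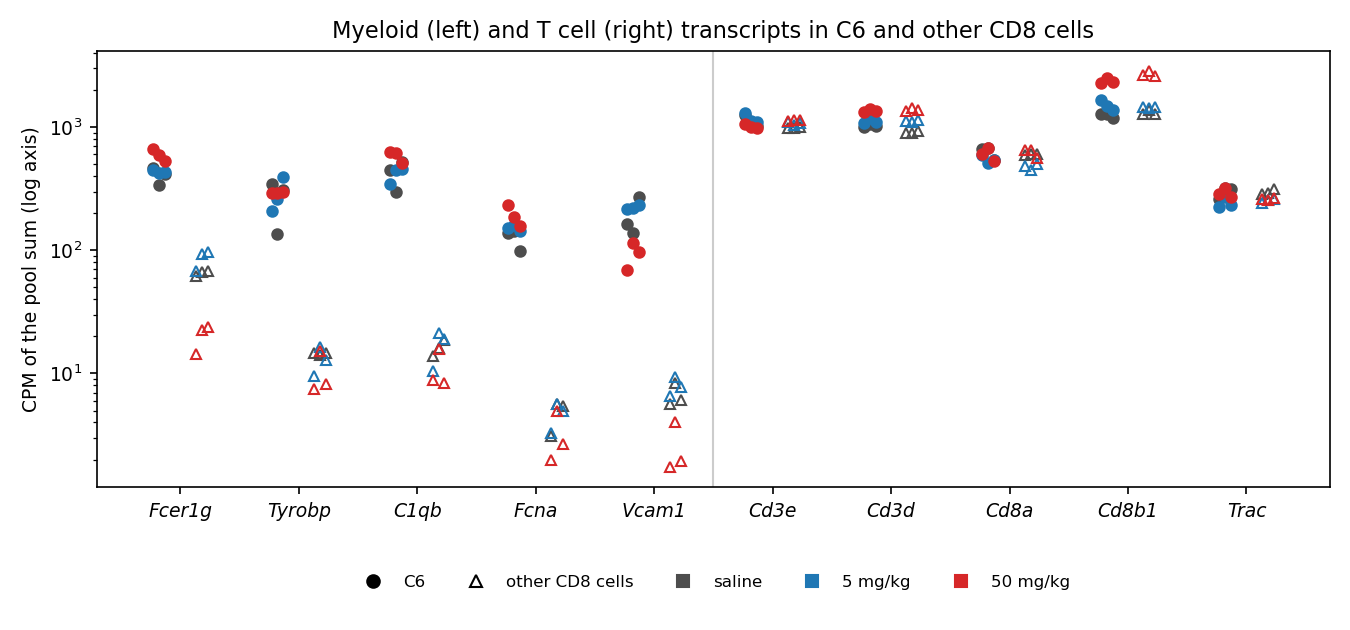
CPM of 10 genes on a log axis, per pool of 2 mice, in C6 (filled circles) and in the other CD8+ cells (open triangles), coloured by treatment. Fcer1g, Tyrobp, C1qb, Fcna and Vcam1 are separated in every pool, while Cd3e, Cd3d, Cd8a, Cd8b1 and Trac overlap.

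Both kinds of transcript were found in the same barcodes. Per cell, C6 held a median of 29 UMIs of the 47 leading genes, with 12 UMIs at the 10th and 70 at the 90th percentile, and the medians of the other 8 clusters were 0 or 1. At least 10 of these UMIs were present in 507 of 532 C6 cells (95.3%) and in 628 of 10301 other CD8+ cells (6.10%). C1qa or C1qb was detected in 90.6% of C6 cells and 7.98% of the others, and Cd3e in 96.2% and 97.8%. Every cell of the CD8 table had a Cd8a or Cd8b1 UMI and 0 had a Cd4 UMI, so that these genes do not bear on C6. Of the 532 cells, 387 (72.7%) carried both an assembled clonotype and 10 or more leading UMIs. The leading genes took 0.594 to 0.810% of all UMIs of C6 per pool and 0.0200 to 0.0621% of those of the other CD8+ cells. The list holds only genes picked for their excess in C6. These shares therefore do not measure how much of the C6 RNA came from any cell type.

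**Figure D2:**
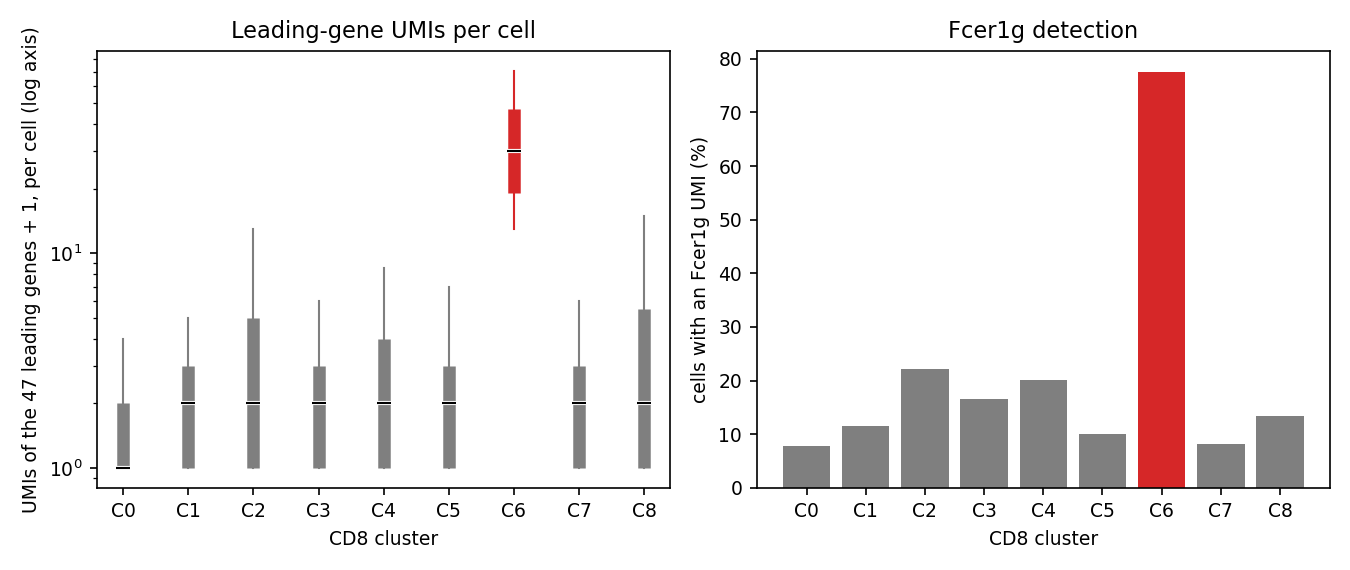
Left, UMIs of the 47 leading genes per cell plus 1 on a log axis by CD8+ cluster, with the median (tick), the middle 50% (thick bar) and the 10th to 90th percentiles (thin line). Right, the percentage of cells with an Fcer1g UMI; C6, in red, stands at a median of 29 leading UMIs and at 77.6%.

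Lists of markers of other cell types were examined in the same way. Of the 20 myeloid genes, 10 had a mean over pools of 50 CPM or more and 7 were higher in C6 in all 9 pools, beside 5.04% of all genes, with a summed level of 1196 to 1620 CPM against 595 to 661 CPM. Widely used myeloid markers differed among themselves. Lyz2 (lysozyme) measured 5.23 to 20.5 CPM against 0.827 to 5.53 CPM and Itgam (CD11b) 0 to 29.8 against 5.16 to 24.3 CPM, with overlap. Adgre1 measured 5.85 to 39.1 against 0.494 to 1.29 CPM and Cd68 48.0 to 186 against 21.4 to 38.3 CPM, without overlap. Cd14 measured 0 to 30.8 against 0 to 0.622 CPM. Of the 12 genes of the dendritic cell list, 6 reached that mean and 5 were higher in all 9 pools, again beside 5.04%, a list that shares the MHC class II genes with the leading genes. The gamma delta receptor, mast cell and basophil, erythroid and CD4 T cell lists had no gene with a mean of 50 CPM. The summed mast cell and basophil list reached at most 6.58 CPM in C6 and the gamma delta list at most 32.9 CPM. The summed CD4 T cell list ran from 0 to 108 CPM in C6 and from 8.55 to 68.8 CPM in the other CD8+ cells. The erythroid list ran from 54.1 to 233 CPM in C6 at 50 mg/kg, against 26.8 to 41.6 CPM in the other CD8+ cells of that dose, and from 6.26 to 40.4 CPM in C6 in the other groups. The beta globin gene Hbb-bs reached 102 CPM in 1 pool of C6. Erythroid transcripts were thus higher in C6 than in the other CD8+ cells in each pool at 50 mg/kg, and their part in the dose results was not tested.

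The genes that were lowest in C6 belonged to the cell cycle. Of the 3331 genes, 310 (9.31%) were lower in all 9 pools, and so were all 20 genes of the cycling list, with a median log2 difference of -1.21. Esco2, which establishes sister chromatid cohesion, measured 0 to 16.5 CPM in C6 and 40.1 to 81.5 CPM in the other CD8+ cells, and the proliferation marker Mki67 65.4 to 337 and 215 to 1305 CPM. The reference held the cycling clusters C2, C3 and C4. Against the 4896 other CD8+ cells outside those clusters, the median of the cycling list turned to 0.96, whereas 46 of the 47 leading genes were again higher in all 9 pools.

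Antibody tags and receptor sequences were measured in separate libraries and had no part in the RNA clusters, and were compared within pools by an exact two-sided sign-flip permutation test over 9 pools, whose smallest possible p is 0.00391. These tag readouts were chosen after the values had been seen. Median CD45.1 antibody counts per C6 cell were 27, 27.5 and 26 after saline, 28, 34 and 29 at 5 mg/kg and 18, 9 and 14 at 50 mg/kg. Those of the other CD8+ cells were 8, 8 and 9, then 8, 9 and 8, then 1, 1 and 2. C6 was higher in 9 of 9 pools, by 17.6 ± 5.02 counts (SD, n = 9; exact sign-flip p = 0.00391, 0.00651 adjusted over 5 tag readouts). Neither the B6 donor cells nor the recipient carried CD45.1, and the TEa line that did is CD4+.

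Other antibodies were higher as well. The median hashtag count per cell was 730 ± 299 in C6 and 534 ± 187 in the other CD8+ cells and was higher in 9 of 9 pools (SD, n = 9; exact sign-flip p = 0.00391, adjusted 0.00651). The CD4 antibody had a median of 13.8 ± 4.03 counts against 8.89 ± 2.57, again higher in 9 of 9 pools (exact p = 0.00391, adjusted 0.00651). The CD8 antibody did not follow, with 105 ± 15.8 counts against 114 ± 17.3 and a lower median in 8 of 9 pools (exact p = 0.0156, adjusted 0.0195). This last difference turned to 8.83 counts higher against the cells outside the cycling clusters and was -4.17 counts (exact p = 0.293) without cells with a strong second hashtag. Median RNA UMIs per cell were lower in C6 in 9 of 9 pools, with 4818 ± 1305 against 5861 ± 1436. Against the cells outside the cycling clusters, whose medians averaged 4593 ± 1239, the C6 median was higher in 7 of 9 pools.

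A second hashtag with at least 0.5 of the counts of the strongest was carried by 9.27 ± 8.45% of C6 cells and 5.79 ± 5.36% of the other CD8+ cells (SD, n = 9). In replicate 1 of each group it was 0% in C6 and at most 0.218% in the other CD8+ cells. In the 6 remaining pools it was 7.23 to 24.6% in C6 and 4.44 to 15.2% in the others, higher in C6 in each (exact sign-flip p over 9 pools = 0.03125). How the hashtags were assigned is not given in the sources used here. Leaving out a pool in turn gave differences of 2.73 to 3.94 percentage points, 6 of which did not pass the threshold. Such cells may combine pools, which was not tested, and combinations of cells within a pool would carry no such mark. Without the cells with a strong second hashtag, 47 of 47 leading genes were still higher in all 9 pools. Whether the macrophage transcripts and the additional antibody counts were in the T cell, on it or beside it in the droplet was not tested, nor was the part of the Fc receptor genes in the binding of the antibodies.

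**Figure D3:**
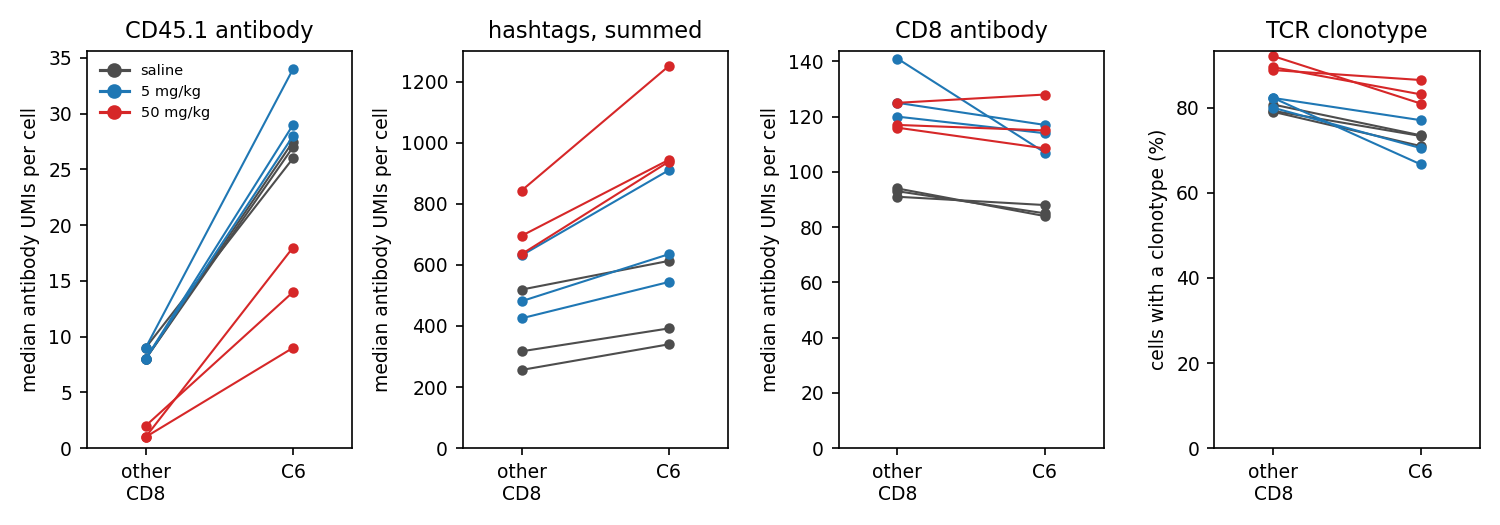
Median antibody counts per cell (CD45.1, summed hashtags, CD8) and the percentage of cells with a TCR clonotype in the other CD8+ cells and in C6, with a line for each of the 9 pools coloured by treatment. CD45.1 and hashtag counts rise from the other cells to C6 in 9 of 9 pools, and the clonotype share falls in 9 of 9.

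Clonal composition was examined next. A clonotype was assembled in 75.8 ± 6.54% of C6 cells and 83.8 ± 4.99% of the other CD8+ cells (SD, n = 9), lower in C6 in 9 of 9 pools (exact sign-flip p = 0.00391). With the cells of all pools together the share was 76.7% in C6, 78.2% in C7, 79.6% in C0 and up to 87.6%, in C8. Median RNA UMIs per cell were lower in C6 than in this reference, and their part in the difference was not tested. A clonotype of at least 2 CD8+ cells of the pool, called expanded, held 24.5 ± 6.04% of the C6 cells with a clonotype and 28.5 ± 7.68% of the others, lower in 8 of 9 pools, and the difference did not pass the threshold (exact p = 0.0547). Without the third pool at 5 mg/kg the difference was -5.28 percentage points (exact p = 0.00781), and against the cells outside the cycling clusters it turned to 3.34 points higher (exact p = 0.0898). More than 1 beta chain, a mark of doublets of 2 T cells, was found in 7.08 ± 3.48% of C6 cells and 8.67 ± 3.00% of the others with a clonotype (exact p = 0.301). It cannot show a T cell combined with a cell that has no T cell receptor.

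The 408 C6 cells with a clonotype had 404 different ones, and no clonotype held more than 2 C6 cells. Of these cells 99 were in 95 expanded clonotypes, and 94 of the 95 were found in another CD8+ cluster of the pool as well. Expansion was counted over all CD8+ cells, of which C6 held few, so this count largely follows from the definition. The 269 other cells that shared these clonotypes made up 7.53% of the cells with a clonotype in the cycling cluster C4, 3.84% in C3 and 3.02% in C2, and 0 of 338 in C7, named TN in the study, which allows up to 0.888%. Sharing requires an expanded clonotype, and these held 49.5% of the cells with a clonotype in C4, 34.0% in C3, 33.1% in C2 and 0.296% in C7. Across doses, expanded clonotypes held 29.2 ± 5.93%, 22.4 ± 5.44% and 21.8 ± 5.60% of C6 cells after saline, 5 and 50 mg/kg (SD, n = 3 pools each; exact Jonckheere-Terpstra permutation p for a trend = 0.189).

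The question of whether CSA changed the size of C6 had no answer past the threshold. C6 made up 3.16, 3.84 and 5.18% of CD8+ cells after saline, 3.90, 7.13 and 5.48% at 5 mg/kg and 3.76, 6.85 and 5.73% at 50 mg/kg. The ranges of the groups overlapped. Means were 4.06 ± 1.03%, 5.50 ± 1.61% and 5.45 ± 1.56% (SD, n = 3), with an exact trend p of 0.277 (0.357 adjusted over 9 clusters) and exact permutation p of 0.2 for 5 mg/kg and 0.3 for 50 mg/kg against saline, where 3 pools against 3 cannot go below 0.1.

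Dose was then compared within C6 over the 9 pools, with TMM-scaled CPM (CPM corrected for composition) as levels. The quasi-likelihood test of edgeR was applied to the 4877 genes that passed the filter on low counts, with p-values adjusted by the Benjamini-Hochberg method at a threshold of 0.05. At 50 mg/kg against saline 904 genes rose (18.5%) and 949 fell (19.5%), 38.0% in all. At 5 mg/kg 391 rose (8.02%) and 258 fell (5.29%), 13.3% in all, and 392 genes were called without the second pool of that dose. At 50 against 5 mg/kg 117 were higher (2.4%) and 196 lower (4.02%), 6.42% in all, and 187 were called without the third pool at 5 mg/kg. The pools of the 2 groups did not overlap for 49.0%, 30.6% and 21.7% of the genes in the 3 comparisons. Scaling matters here: with library size alone the median log2 fold change of all genes moved from -0.03 to -0.38 at 50 mg/kg and from -0.01 to -0.29 at 5 mg/kg, and the calls became 377 higher and 1713 lower, and 190 higher and 842 lower. All log2 fold changes below are relative to the TMM scale. Median RNA UMIs per C6 cell were 3293 to 3591 after saline, 4334 to 4981 at 5 mg/kg and 5779 to 6874 at 50 mg/kg.

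The 47 leading genes split at 50 mg/kg. With 38.0% of all tested genes called (18.5% higher and 19.5% lower), 19 rose, 15 fell and 13 did not pass the threshold. With library size alone 11 rose and 16 fell, beside 7.73% and 35.1% of all genes. On that scale the falls were near the share over all genes. At 5 mg/kg 3 rose (C1qc, Wfdc17 and Lst1) and 0 fell by this test, beside 8.02% and 5.29% of all genes. DESeq2 called 1 higher and 0 lower, beside 5.82% and 1.70%. With library size alone 1 rose and 2 fell, beside 3.90% and 17.3%.

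Antigen presentation genes and chemokines were among those that fell. MHC class II molecules present peptides to CD4+ T cells, and Cd74 chaperones them. H2-Aa, an alpha chain, measured 214, 119 and 182 TMM CPM after saline, 153, 227 and 215 at 5 mg/kg and 26.8, 32.3 and 33.1 at 50 mg/kg. The 3 pools at 50 mg/kg lay below all others, a log2 fold change of -2.41 ± 0.26 against saline (SE; adjusted p = 3.2e-10, edgeR). H2-Ab1 fell by 2.92 and H2-Eb1 by 2.79 on the log2 scale. Cd74 measured 625, 459 and 751 TMM CPM after saline, 711, 737 and 725 at 5 mg/kg and 157, 170 and 126 at 50 mg/kg, a log2 fold change of -2.04 ± 0.16 (SE; adjusted p = 1.72e-14). H2-DMa, which loads peptides onto class II molecules, was not among the leading genes and did not pass the threshold, with -0.74 ± 0.33 (SE; adjusted p = 0.0687).

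Promoters of 2 of these class II genes are shown because the genes fell together and class II promoters are known to share conserved elements. The windows run from 250 bases before to 50 bases after the transcript start in RefSeq's annotation of GRCm38.p6, and the capitals mark the letters TGATTGG, the Y box read on the gene's strand, and TGATGATG. Both strands were searched.
H2-Aa, chr17:34287774-34288073, minus strand: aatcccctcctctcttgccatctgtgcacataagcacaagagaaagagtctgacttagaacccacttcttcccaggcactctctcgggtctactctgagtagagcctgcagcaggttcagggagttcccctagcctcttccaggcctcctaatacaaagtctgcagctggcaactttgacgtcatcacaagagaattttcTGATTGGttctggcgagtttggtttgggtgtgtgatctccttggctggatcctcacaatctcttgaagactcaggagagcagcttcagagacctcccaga
H2-Eb1, chr17:34305617-34305916, plus strand: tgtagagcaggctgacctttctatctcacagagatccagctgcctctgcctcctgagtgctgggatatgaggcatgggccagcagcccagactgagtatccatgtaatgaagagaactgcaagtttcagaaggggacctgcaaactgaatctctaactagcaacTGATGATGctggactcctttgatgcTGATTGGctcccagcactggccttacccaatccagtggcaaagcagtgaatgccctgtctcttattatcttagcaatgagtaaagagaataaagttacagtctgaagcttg
TGATTGG was found in 7.82% of 32851 promoters of this length, TGATGATG in 1.44% and both in 0.0883%. These matches are a description of the windows.

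Ccl24, the chemokine eotaxin-2, fell furthest. It measured 480, 247 and 373 TMM CPM after saline, 477, 470 and 385 at 5 mg/kg and 4.47, 4.31 and 14.5 at 50 mg/kg, a log2 fold change of -5.33 ± 0.31 (SE; adjusted p = 9.93e-19, edgeR). Ubd, which encodes the ubiquitin-like protein FAT10, fell by 4.05 on the log2 scale, and Apoe, the lipid carrier apolipoprotein E, by 1.16. Other members that fell were Ccl6, Gbp2b, Serpina3g, Serpina3f, Il18, Fcgr3, Vcam1 and Wfdc17, by 0.45 to 2.25 on the log2 scale. By DESeq2 Il18 and Vcam1 did not pass the threshold.

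Genes of iron handling and complement were among those that rose. Hmox1, which degrades haem, measured 203, 166 and 301 TMM CPM after saline, 270, 344 and 296 at 5 mg/kg and 608, 750 and 587 at 50 mg/kg, a log2 fold change of 1.497 ± 0.15 (SE; adjusted p = 7.47e-11, edgeR). Spic rose by 1.30 ± 0.23, C1qc by 0.92 ± 0.14, Fcna by 0.91 ± 0.19 and C1qb by 0.75 ± 0.14 (SE). C1qa, the third C1q chain, did not pass the threshold with 0.15 ± 0.14 (adjusted p = 0.397), nor did Csf1r with 0.33 ± 0.25 or Cd5l with 0.08 ± 0.20. The highest log2 values among the members that rose were 1.83 for Slpi and 1.81 for Hebp1.

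Fcer1g itself rose in C6 at 50 mg/kg. It measured 434, 319 and 398 TMM CPM after saline, 504, 484 and 474 at 5 mg/kg and 774, 690 and 626 at 50 mg/kg. The high-dose pools lay above all others, a 1.81-fold higher mean and a log2 fold change of 0.85 ± 0.13 against saline (SE; adjusted p = 6.4e-07, edgeR). RNA levels shaped which cells were in C6, and the part of that choice in this change was not tested. In the other CD8+ cells Fcer1g went the other way, with 49.3, 53.4 and 53.9 TMM CPM after saline, 72.9, 101 and 104 at 5 mg/kg and 16.8, 26.1 and 27.7 at 50 mg/kg.

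**Figure D4:**
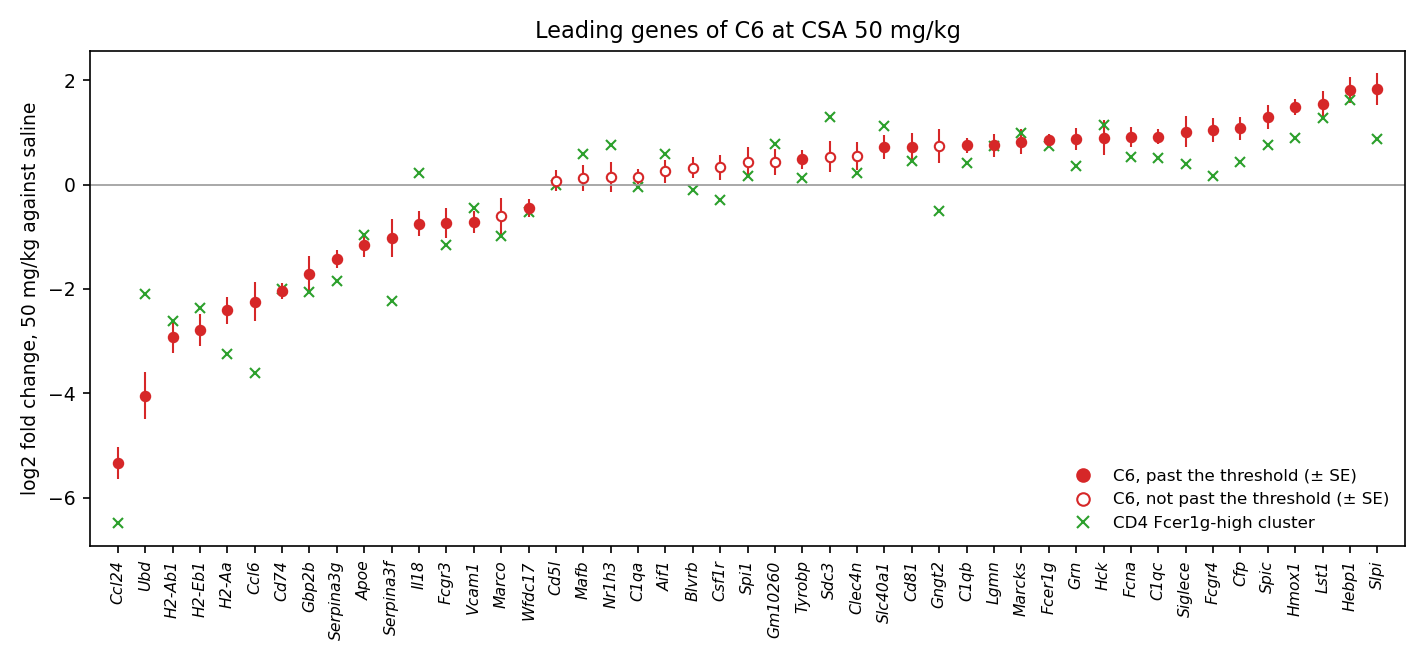
Log2 fold change at CSA 50 mg/kg against saline of the 47 leading genes in C6 (circles, ± SE; filled where the edgeR test passed the threshold) and in the CD4+ Fcer1ghi cluster (crosses), ordered by the value in C6. Ccl24, Ubd, the class II genes and Cd74 lie furthest below 0 and Slpi, Hebp1, Lst1 and Hmox1 furthest above it.

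The leading genes of C6 were looked up in the CD4+ Fcer1ghi cluster. Of the 47, 46 were higher there than in the other CD4+ cells in 9 of 9 pools, with a median log2 difference of 4.29 beside 3.99 in C6, and its CD45.1 antibody median was 20.6 ± 8.87 counts against 4.33 ± 2.35 (SD, n = 9; exact sign-flip p = 0.00391). In these CD4+ cells 14 of the 47 rose and 13 fell at 50 mg/kg, beside 16% and 18.1% of all genes tested there. Of the members called in C6, 12 of the 19 that rose and 13 of the 15 that fell were called in the same direction there. Ccl24 fell by 6.49 on the log2 scale, Cd74 by 2.01 and H2-Aa by 3.24, and Hmox1 rose by 0.89. The cells of the clusters are different, but they came from the same mice and captures.

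Whether a change with dose differed between C6 and the other CD8+ cells was asked with an interaction term in edgeR with the pool as a block, over 10194 genes. At 50 mg/kg 99 genes passed (0.971%), with 38 higher (0.373%) and 61 lower (0.598%) changes in C6, and at 5 mg/kg 35 passed (0.343%), with 2 higher (0.0196%) and 33 lower (0.324%). The split at 50 mg/kg was 51 higher and 42 lower with library size alone and 13 and 105 by DESeq2, which called 118 genes, 50 of them among the 99. Against the CD8+ cells outside the cycling clusters 54 genes passed at 50 mg/kg, 40 higher and 14 lower, and 4 at 5 mg/kg. At 50 mg/kg 44, 58 and 48 passed without replicate 2 of saline, replicate 3 of saline or replicate 3 of the higher dose. At 5 mg/kg 81, 6 and 12 passed without replicate 1, 2 or 3 of saline and 14, 53 and 14 without replicate 1, 2 or 3 of that dose. Among the 47 leading genes, 11 had a higher and 2 a lower change in C6 at 50 mg/kg. The 47 were chosen by their excess in C6 in these same pools. The 2 counts and the differences of single members are therefore a description and no test of the list. Fcer1g differed by 2.15 ± 0.16 in log2 change (SE), higher in C6. Hmox1 differed by 1.09 ± 0.18 and C1qb by 0.99 ± 0.19 in the same direction, and Il18 by -2.45 ± 0.35 and Cd74 by -1.40 ± 0.18 in the other. For Ccl24, H2-Aa, H2-Ab1 and H2-Eb1 the difference did not pass. Their low levels in the other CD8+ cells fell too, those of Ccl24 from 10.8, 11.9 and 12.2 to 0, 0.284 and 0.216 TMM CPM.

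Genes of T cell activation and exhaustion changed in C6 as well. Of the 10 inhibitory receptor and exhaustion genes tested, 8 fell and 1 rose at 50 mg/kg, beside 19.5% and 18.5% of all genes. By DESeq2 7 fell and 0 rose, beside 9.62% and 10.8%. With library size alone 9 fell and 0 rose, beside 35.1% and 7.73%. Pdcd1, which encodes PD-1, measured 353, 327 and 257 TMM CPM after saline, 297, 267 and 396 at 5 mg/kg and 8.95, 4.31 and 78.5 at 50 mg/kg, a log2 fold change of -3.09 ± 0.31 (SE; adjusted p = 5.7e-11, edgeR). The third high-dose pool stood above the other 2 but below all pools of the other groups. Tox, the transcription factor of exhaustion, fell by 3.72, Lag3 by 1.75 and Tigit by 1.17 on the log2 scale, while Cd160 was the gene that rose, by 0.62. Of these 10 genes and the 18 T cell receptor complex genes, 0 passed the edgeR interaction test at either dose, which does not show that the changes were equal. For Pdcd1 the difference from the other CD8+ cells was 0.23 ± 0.27 (SE).

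Of the 14 tested genes induced by NFAT and T cell receptor signalling, 7 fell and 2 rose at 50 mg/kg, beside the same 19.5% and 18.5%, and the 2 that rose were the chemokines Ccl3 and Ccl4. Nfatc1, an NFAT family member, fell by 1.34, Tnfrsf9, which encodes 4-1BB, by 1.87 and the costimulatory receptor Cd226 by 2.12 on the log2 scale. Ccl5 measured 2414, 3483 and 3321 TMM CPM after saline, 8265, 6028 and 5904 at 5 mg/kg and 15724, 17219 and 15623 at 50 mg/kg, a log2 fold change of 2.39 ± 0.11 (SE; adjusted p = 9.37e-22, edgeR). The levels of the 3 groups did not overlap. Ly6c2, which encodes Ly6C, rose by 2.41 and Klrg1, an inhibitory receptor of short-lived effectors, by 2.49. Ccl4 rose by 2.04 ± 0.22, and by 0.98 ± 0.16 more than in the other CD8+ cells (SE; adjusted p of the difference = 6.97e-06), while Ccl5 rose by 0.47 ± 0.10 less (adjusted p = 0.0036).

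**Figure D5:**
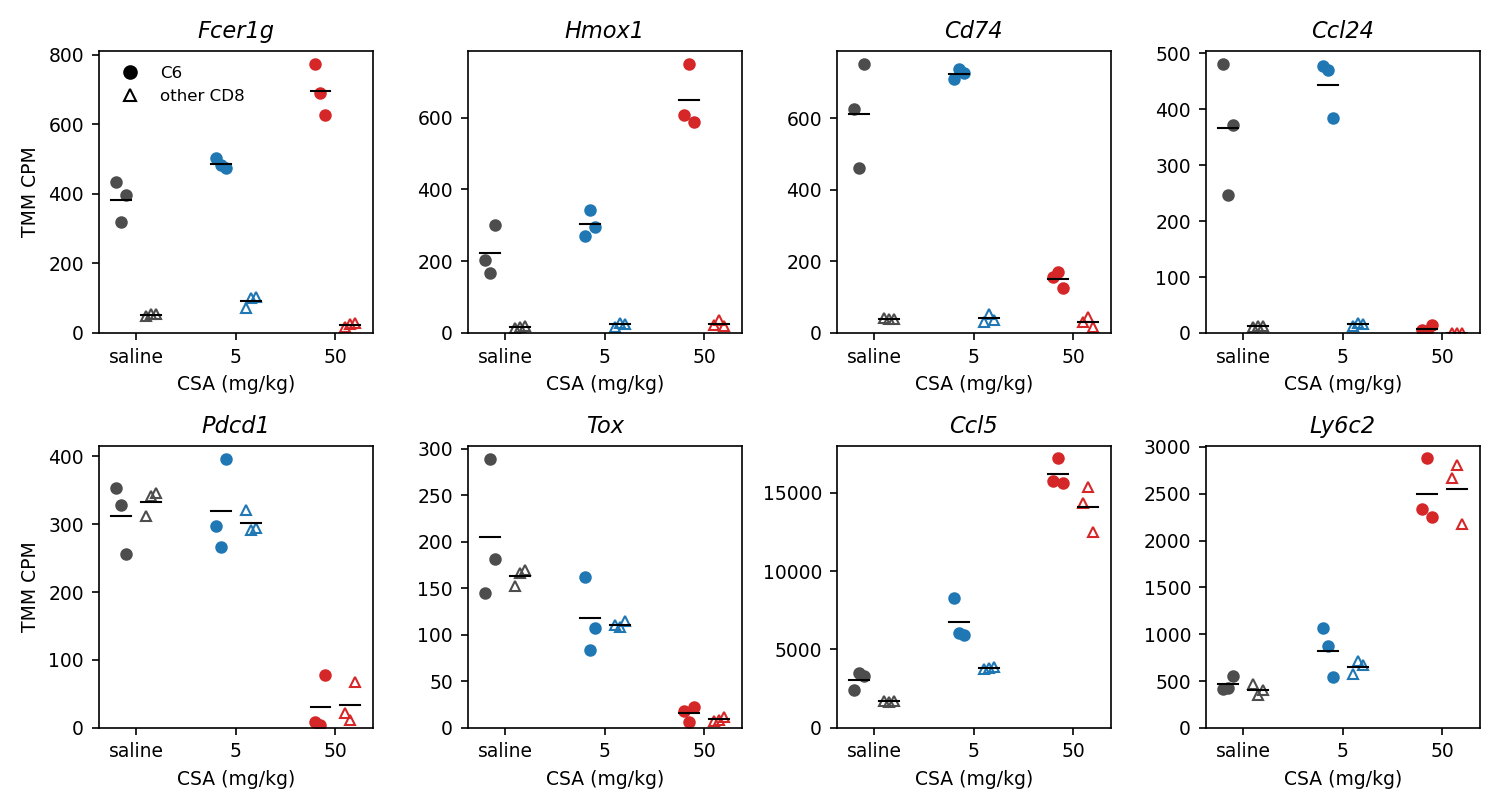
TMM CPM of 8 genes per pool by CSA dose in C6 (filled circles) and the other CD8+ cells (open triangles), with group means as lines; every vertical axis starts at 0 and is scaled to its gene. Fcer1g and Hmox1 are highest and Cd74 and Ccl24 lowest in the 3 high-dose pools of C6, while Pdcd1 and Tox are lowest and Ccl5 and Ly6c2 highest there.

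Of the 10 largest falls at 50 mg/kg, 8 were histone genes, beside Ccl24 and Ubd. Hist1h1b, a linker histone, measured 1088, 944 and 1021 TMM CPM after saline, 549, 554 and 570 at 5 mg/kg and 40.3, 62.5 and 49.6 at 50 mg/kg, a log2 fold change of -4.25 ± 0.16 (SE; adjusted p = 7.54e-26, edgeR). Of the 20 genes of the cycling list 6 fell and 0 rose, beside 19.5% of all genes that fell. With library size alone 16 of them fell, beside 35.1% of all genes.

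Genes with few UMIs after saline led the rises. Jchain, the joining chain of polymeric immunoglobulins, had 1 UMI in all saline C6 cells together, 0 in those of the lower and 302 in those of the higher dose, where the pools measured 197, 481 and 72.3 TMM CPM. Cd163l1, a scavenger receptor family member, had 0, 4 and 82 UMIs and Msc, a transcriptional repressor, 4, 0 and 70. Anxa1, which encodes annexin A1, measured 23.2, 12.8 and 46.96 TMM CPM after saline and 273, 388 and 273 at 50 mg/kg, a log2 fold change of 3.37 ± 0.27 (SE; adjusted p = 8.92e-14, edgeR). Ctla2a, an inhibitor of cysteine proteases with 39 UMIs in the saline C6 cells, rose by 2.47. Levels in the other CD8+ cells spanned like ranges. Over all pools Anxa1 ran from 13.5 to 335 CPM in C6 and from 42.8 to 334 CPM in the others. Cd163l1 ran from 0 to 82.0 and from 0.773 to 73.3 CPM.

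The lower dose was marked by genes of translation and respiration. At 5 mg/kg 45 of 46 ribosomal protein genes and 45 of 55 oxidative phosphorylation genes rose, against 8.02% of all genes tested. With library size alone 36 and 27 did, against 3.90%. At 50 mg/kg 46 and 52 rose, against 18.5%, and with library size alone 43 and 37, against 7.73%. Rps28, a protein of the small ribosomal subunit, measured 556, 642 and 664 TMM CPM after saline, 2149, 2519 and 2095 at 5 mg/kg and 1423, 1513 and 1697 at 50 mg/kg. The group ranges were separate, with the highest levels at the lower dose and a log2 fold change of 1.85 ± 0.11 against saline (SE; adjusted p = 4.44e-17, edgeR). Atp5k, an ATP synthase subunit, rose by 2.09 ± 0.24 and Rpl38, of the large ribosomal subunit, by 1.67 ± 0.11. In the other CD8+ cells the log2 values at 5 mg/kg were 2.08 for Rps28, 1.97 for Atp5k and 2.09 for Rpl38.

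Itga4, the alpha 4 integrin chain, fell at the lower dose in C6, with 2119, 1846 and 1822 TMM CPM after saline, 576, 714 and 818 at 5 mg/kg and 483, 401 and 583 at 50 mg/kg. The groups treated with CSA lay below all saline pools, and the log2 fold change was -1.41 ± 0.12 at 5 mg/kg (SE; adjusted p = 1.02e-12, edgeR). Igf2r, which sorts lysosomal enzymes, fell by 1.59 on the log2 scale at that dose. The list of migration genes, Itga4 among them, was summed as well. In the other CD8+ cells it measured 5236 to 5372 CPM after saline and 2838 to 3089 at 5 mg/kg. In C6 it measured 5089 to 5985 and 2978 to 3298 CPM.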

How the data were processed

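Single-cell RNA, TCR and antibody-tag libraries (10x 5′) of splenic T cells from 3 captures, 1 per treatment, were analysed. The authors deposited raw UMI counts per gene and cell, antibody and hashtag counts per cell, clusters, clonotypes and the fraction of mitochondrial UMIs, made with Cell Ranger and Seurat 3.0.0 on build mm10 per the processing notes; their filters on cells are not given in the sources used here, and no further filter was applied. Doublets were not removed; cells with a strong second hashtag were left out as an alternative.

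Counts were summed over the C6 cells of each pool (27 to 83 cells), with at least 10 cells required. Genes passing filterByExpr were tested with edgeR 4.0.16 (TMM, quasi-likelihood, threshold 0.05 after Benjamini-Hochberg adjustment; R 4.3.3). SE is the log2 fold change divided by the square root of F. DESeq2 1.42.0 was an alternative. Shares and tags were compared over pools by exact permutation tests (scipy 1.17.1). Intervals cover counting error only. The median mitochondrial fraction, as a percentage, was 1.79 ± 0.14% in C6 and 1.67 ± 0.12% in the other CD8+ cells (SD, n = 9).

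Genes named were the 12 largest positive and 8 largest negative differences of C6 in all 9 pools at 50 CPM or more, the 10 largest rises and falls at 50 mg/kg, the 5 largest in each direction for the other dose contrasts and the interaction at 50 mg/kg and the 3 largest for that at 5 mg/kg, all past the threshold and the dose contrasts without overlap between pools, T cell receptor gene segments left out; members of the gene lists; genes named by the study for CD8+ cells; and genes of macrophages and antigen presentation added after their values were seen. The members and all lists were chosen with earlier results of these data known, and the 47 leading genes were chosen on these pools.

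On simulated counts with log2 changes of 2 in either direction, the dose test recovered 91.5% of 153 changed genes among 4744 tested and the interaction test 55.5% of 200 among 10123.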

Additional observations from a re-analysis of the deposited data

Results flagged for a closer look

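The change with dose differed between C6 and the other CD8+ cells for 99 genes at 50 mg/kg and for 35 at 5 mg/kg by the interaction test in edgeR with Benjamini-Hochberg adjustment. At 50 mg/kg the 5 largest higher changes in C6 were those of Ctsh (3.06 in log2 units), Lyn (2.34), Fcer1g (2.15), Gatm (2.08) and Ckb (2.05). Ctsh is a lysosomal cysteine protease and Lyn a kinase of myeloid and B cells. Lyn measured 28.9, 46.8 and 43.8 TMM CPM in C6 after saline and 98.4, 69.0 and 86.8 at 50 mg/kg, while in the other CD8+ cells it went from 7.11, 5.86 and 7.88 to 2.58, 2.98 and 3.67.

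The 5 largest lower changes in C6 were those of the histone genes Hist1h2ak (-2.56), Hist1h2bj (-2.51), Hist1h2ae (-2.28) and Hist2h2bb (-2.26) and of Il18 (-2.45), a cytokine gene. Against the CD8+ cells outside the cycling clusters none of these 5 passed, with Hist1h2ak at -0.39, Hist1h2bj at -0.81, Hist2h2bb at -0.60 and Hist1h2ae turned to 0.0225. Of the higher changes, those of Lyn, Fcer1g and Ckb passed there and those of Ctsh and Gatm did not. Il18 measured 116, 106 and 116 TMM CPM in C6 after saline and 76.1, 73.3 and 55.8 at 50 mg/kg, while the low level of the other CD8+ cells rose from 3.74, 3.60 and 4.43 to 13.03, 12.6 and 17.5. Against the CD8+ cells outside the cycling clusters the difference for Il18 was -1.50 and did not pass.

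At 5 mg/kg the change in C6 was higher for Mki67 (0.974) and mt-Atp8 (0.511) and lower for Hist1h2ae (-1.38), Mrpl42 (-0.958) and Ndufs6 (-0.924). With the cycling clusters left out of the reference, none of these 5 passed, and Mki67 turned to -0.26.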

How the results depend on the processing

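Calls in C6 at 5 mg/kg against saline numbered 649, with 367 by DESeq2, 1032 with library size alone and 392 to 679 without 1 pool, the lowest without the second pool at 5 mg/kg. At 50 mg/kg against saline 997 of the 1853 were called by DESeq2, and 1494 to 1940 without 1 pool. Between the doses 313 were called, with 125 by DESeq2, 197 in cells with a clonotype and 187 to 333 without 1 pool, the lowest without the third pool at 5 mg/kg. The interaction at 50 mg/kg gave 54 genes against non-cycling cells and 44 to 142 without 1 pool, with 44, 58 and 48 without the second saline pool, the third saline pool or the third pool at 50 mg/kg. At 5 mg/kg it gave 102 by DESeq2, 22 with library size alone, 20 without the filter, 4 against non-cycling cells and 6 to 81 without 1 pool. Against non-cycling cells, signs turned for Hist1h2ae at 50 mg/kg (0.0225), Mki67 at 5 mg/kg (-0.26), Ccnf (0.31), Ncaph (0.0704), Sgo2a (0.74), Clspn (0.82), the expanded share (3.34 points) and the CD8 antibody (8.83 counts), which was -4.17 counts without cells with a strong second hashtag. Without 1 pool, the second hashtag difference ran from 2.73 to 3.94 points and the expanded share difference from -5.28 to -2.56. The causes were not tested. No paired analysis of dose was possible because pools of different groups held different mice and only a number in common. The second hashtag alternatives, tag tests and leave-one-out values for tags were chosen after seeing the data. The depth of C6, 125013 to 573391 UMIs per pool, limits weakly expressed genes.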

Other observations

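Further lists moved in C6 at 50 mg/kg against a background of 18.5% of all genes that rose and 19.5% that fell. With library size alone these shares were 7.73% and 35.1%. Of 15 annexin, S100 and galectin genes, 12 rose and 1 fell; with library size alone it was 9 and 2. Of 13 cytokine receptor genes, 8 fell and 0 rose, and of 14 migration genes 7 fell, Itga4 among them, and 5 rose. Of 6 NK receptor genes, 5 rose, among them Klrd1 (CD94), at 191, 213 and 269 TMM CPM after saline and 631, 653 and 546 at 50 mg/kg, and Klrk1 (NKG2D), and 1, Fcgr3, fell. With library size alone 3 rose and 1 fell. Of the 12 cytotoxic effector genes 4 rose and 4 fell. Gzmb, granzyme B, had a log2 fold change of 0.37 ± 0.12 (SE; adjusted p = 0.011, edgeR), 0.02 with library size alone, and did not pass by DESeq2. In the other CD8+ cells the summed NK receptor list measured 884 to 964 CPM after saline and 1370 to 1577 at 50 mg/kg. The annexin, S100 and galectin list measured 16804 to 17138 and 30760 to 33881 CPM there. The cytokine receptor list measured 3403 to 3455 and 1892 to 1982 CPM. Changes of 0 NK receptor genes, 2 annexin, S100 or galectin genes and 1 cytokine receptor gene passed the interaction test at that dose.

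The CD45.1 antibody was lower at 50 mg/kg in both classes, with 13.7 ± 4.51 counts in C6 and 1.33 ± 0.58 in the other CD8+ cells against 26.8 ± 0.76 and 8.33 ± 0.58 after saline (SD, n = 3 pools of 1 capture each).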
